A study of Sus scrofa domesticus with 6 samples.

Results

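The transcripts examined here are those of the 3 chains of complement C1q (C1QA, C1QB and C1QC) and of proteins by which macrophages are recognised or take up material: the scavenger receptor MSR1, the mannose receptor MRC1, the lysosomal membrane protein CD68, the calcium-binding protein AIF1 and the haemoglobin receptor CD163. They were picked by name, 8 genes of 25322 rows in the deposited table, and each name occurred once. The row named CD163 was set aside, which left 7 genes. The libraries were made from mandibular condyles of miniature pig embryos; the condyle is the joint end of the lower jaw and grows by replacing cartilage with bone. The groups are embryonic days 45 and 85 with 3 libraries each. All libraries carry the same labels otherwise: cartilage as tissue, primary cells, and ossification of cartilage as treatment, with no genotype given. The labels do not say whether each library is a separate animal, so p-values measure the spread between libraries, which may be technical.

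C1q is the recognition molecule of the classical complement pathway. Its chains A, B and C assemble through collagen-like stalks, and their globular heads bind antibody complexes and the surface of dying cells. The proteases C1r and C1s then carry the signal to C4, C2 and C3. Unlike most complement proteins, which come from the liver, C1q is made mainly by macrophages and related myeloid cells. In developing cartilage and bone, such cells lie in the perichondrium, marrow and invading vessels, and osteoclasts arise from the same myeloid lineage.

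Total counts ran from 12546729 to 16559616 per library. The label names chondrocytes and osteocytes as the source, and the libraries also held muscle, vessel and osteoclast transcripts, and replicate 2 of day 85 stood apart. There the summed level of 7 skeletal muscle markers was 2229 counts per 1000000 counts (CPM), against 26300 and 28930 in the other day 85 libraries. The sum of 10 osteoclast markers was 13530 CPM, against 1903 and 2329. The sum of 10 chondrocyte markers was 13210 to 16110 CPM at day 45 and 1586 to 5581 CPM at day 85. In bulk tissue, a change in the number of cells of a type and a change in RNA per cell cannot be told apart. All levels below in CPM are scaled to library size with TMM factors, fold changes are day 85 over day 45, and adjusted p-values come from the edgeR quasi-likelihood fit to all 15022 genes that passed the count filter.

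All 3 C1q chains rose between day 45 and day 85. C1QA, the A chain, stood at 15.0, 22.9 and 26.8 CPM in day 45 replicates 1, 2 and 3 and at 68.2, 55.4 and 37.3 CPM in the corresponding day 85 libraries. Every day 85 library lay above every day 45 library. The means were 21.6 ± 6.02 and 53.6 ± 15.5 CPM (SD, n = 3), a 2.49-fold rise (log2 fold change 1.31, SE 0.29, adjusted p = 0.0480, edgeR). C1QB, the B chain, stood at 2.39, 3.32 and 3.92 CPM at day 45. Its day 85 levels were 12.7, 10.6 and 6.46 CPM, again without overlap. C1QB rose 3.08-fold (log2 fold change 1.62, SE 0.32, adjusted p = 0.0383, edgeR). C1QC, the C chain, had day 45 levels of 19.6, 28.6 and 27.3 CPM and reached 98.9, 89.5 and 56.2 CPM in the older condyles. This was a 3.24-fold rise (log2 fold change 1.70, SE 0.25, adjusted p = 0.0238, edgeR).

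The chains also varied alike between libraries. At day 85 each was highest in replicate 1 and lowest in replicate 3. At day 45 each was lowest in replicate 1, while the highest was replicate 3 for C1QA and C1QB and replicate 2 for C1QC. In the plot of levels by library the C1q symbols therefore repeat nearly the same pattern at 3 heights.

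**Figure D1:**
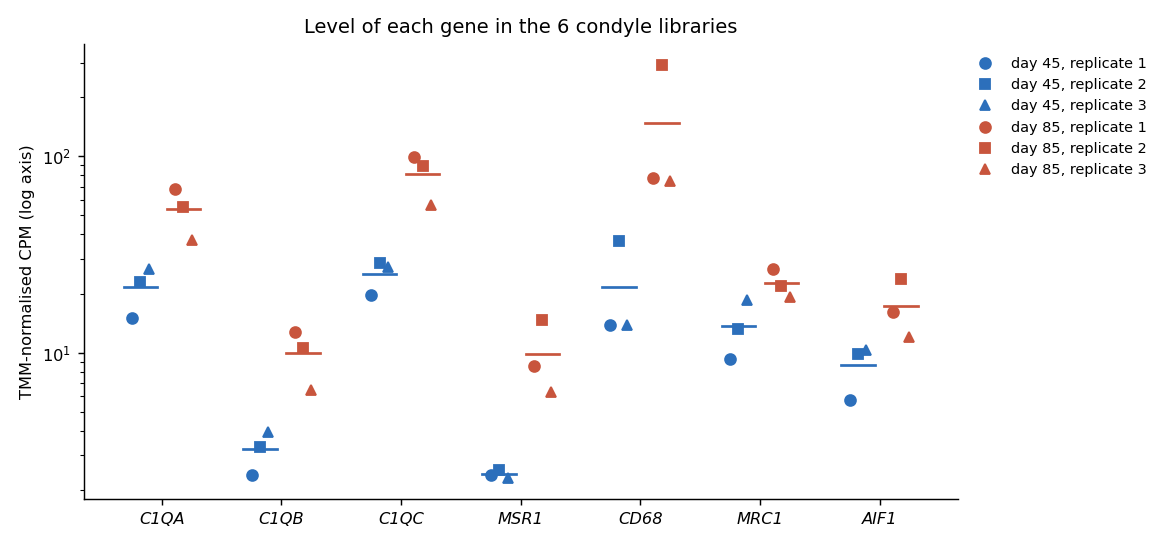
Level of the 7 tested genes in every library, in TMM-normalised CPM on a log axis; blue symbols are day 45, red symbols day 85, the symbol shape is the replicate and the short line is the mean of 3 libraries. In all 7 genes the red symbols lie above the blue ones; CD68 has 1 red square far above the rest, at 293 CPM.

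The chain genes lie side by side on chromosome 6. Positions are as deposited, and no source used here names their genome build. C1QA (ENSSSCG00000003524) spans 74609912 to 74612993, C1QC (ENSSSCG00000003525) 74616233 to 74621248 and C1QB (ENSSSCG00000003526) 74625259 to 74629862. The table does not pair these spans with exons.

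Levels of different genes can be compared only per length, for which the authors' FPKM values serve. Per length, C1QA and C1QC were close to each other and C1QB was far lower. C1QA stood at 20.0 ± 6.40 FPKM at day 45 and 48.4 ± 15.2 FPKM at day 85 (SD, n = 3). C1QC stood at 17.7 ± 3.73 and 55.9 ± 16.2 FPKM, and C1QB at 2.63 ± 0.752 and 7.90 ± 2.69 FPKM. The FPKM of C1QC was 7.08, 7.44 and 5.99 times that of C1QB in day 45 replicates 1, 2 and 3, and 6.73, 7.28 and 7.51 times at day 85. This gap was about as wide at either age. Whether the gene model of C1QB in the authors' annotation affects it was not tested.

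The shares of the A and C chains differed in order between the ages. C1QA made up 46.8%, 48.0% and 52.5% of the summed chain FPKM at day 45 and 44.1%, 41.7% and 43.4% at day 85. C1QC made up 46.6%, 45.8% and 40.7% and then 48.7%, 51.3% and 49.9%. The ages did not overlap for either share, but each range covers 3 libraries and no test was made. C1QB kept to between 6.16% and 7.24% in all 6 libraries.

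**Figure D2:**
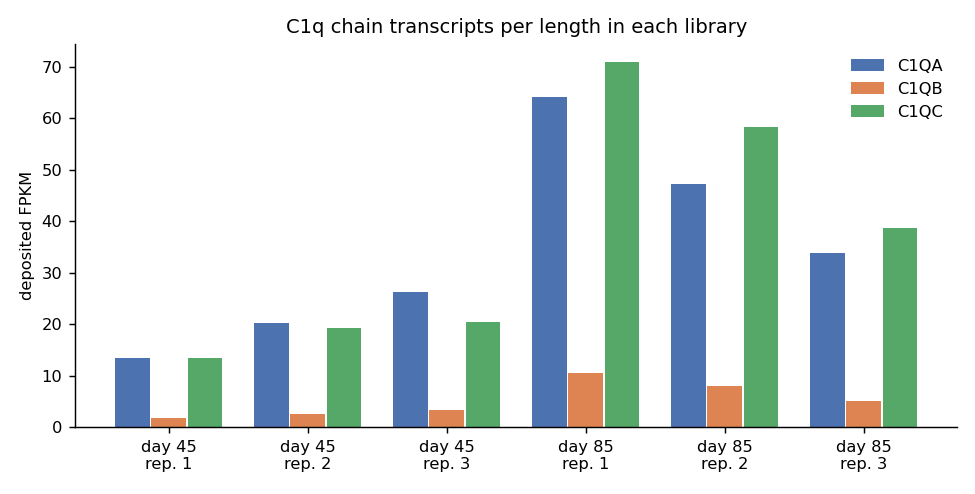
Deposited FPKM of C1QA (blue), C1QB (orange) and C1QC (green) in each library, as bars from 0. C1QB is the lowest bar in every library, and C1QA exceeds C1QC at day 45 while C1QC exceeds C1QA at day 85.

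Among the receptors, MSR1 rose. MSR1, the class A scavenger receptor that binds modified lipoproteins and bacterial surfaces, lies on chromosome 17 at 4110396 to 4191497. In day 45 condyles it stood at 2.39, 2.52 and 2.29 CPM, the narrowest spread of the 7 genes at that age. In day 85 condyles it stood at 8.58, 14.6 and 6.33 CPM, all above. The rise was 4.09-fold (log2 fold change 2.03, SE 0.34, adjusted p = 0.0287, edgeR) and rests on 35 to 39 counts per day 45 library and 96 to 219 per day 85 library. Unlike the C1q chains, MSR1 was highest in day 85 replicate 2.

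MRC1, the mannose receptor of tissue-resident macrophages and of some endothelial cells, did not pass the test. Its levels were 9.24, 13.1 and 18.4 CPM in the younger and 26.7, 21.9 and 19.1 CPM in the older condyles. The ages did not overlap, but the highest day 45 library and the lowest day 85 library nearly met. The log2 fold change was 0.73 with an SE of 0.27 (adjusted p = 0.136, edgeR), the smallest of the 7. MRC1 lies on chromosome 10 at 48856012 to 48960937.

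CD68, a lysosomal glycoprotein abundant in macrophages and osteoclasts, had the largest fold change of the 7 and the widest spread. The younger libraries held 13.9, 37.2 and 13.8 CPM and the older ones 77.2, 293 and 75.2 CPM. Replicate 2 was the highest library at both ages. The log2 fold change was 2.78 with an SE of 0.72, and the gene did not pass (adjusted p = 0.0720, edgeR). Without day 85 replicate 2 the log2 fold change was 1.83 and CD68 passed (adjusted p = 0.0334, edgeR). CD68 lies on chromosome 12 at 55296985 to 55299524.

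AIF1, also called IBA1, is an actin-binding protein of macrophages and microglia, encoded on chromosome 7 at 27520797 to 27523556. Levels of 5.76, 9.81 and 10.3 CPM in the younger condyles compared with 16.2, 23.8 and 12.1 CPM in the older ones. Its ages did not overlap, and it did not pass (log2 fold change 1.01, SE 0.32, adjusted p = 0.103, edgeR).

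CD163, the haemoglobin-haptoglobin receptor of macrophages, could not be assessed. The row of that name carries an ID that the table of gene IDs lists as SCART1, a different scavenger receptor family member, and lies on chromosome 14 at 153627205 to 153637191, whereas RefSeq places pig CD163 on chromosome 5 in assembly Sscrofa11.1. The row held 3, 3 and 0 counts at day 45 and 0, 2 and 0 at day 85 and did not pass the count filter. These counts say nothing about CD163.

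In all, 4 of the 7 tested genes rose, none fell, and the median log2 fold change was 1.62, with 0.02 as the median of all tested genes. Of all tested genes, 3.9% were called higher and 2.66% lower at day 85. In all 7 genes the 3 day 85 libraries lay above the 3 day 45 libraries, which held for 17.4% of all tested genes. The 7 do not count as 7 separate observations, since they were chosen as genes of one cell lineage and come from the same 6 libraries.

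The calls rest on few libraries, whereas all 7 log2 fold changes stayed above 0 whichever library was left out. All 4 calls held without day 85 replicate 2, and CD68 joined them. C1QC and MSR1 held without day 85 replicate 3 too (adjusted p = 0.0451 and 0.0485, edgeR). Without any of day 45 replicates 1, 2 and 3 or day 85 replicate 1, none of the 7 genes passed, with the adjusted p of C1QC between 0.0634 and 0.117 and that of MSR1 between 0.0684 and 0.134. Over these 6 fits the log2 fold change of C1QA ran from 1.08 to 1.52, that of C1QB from 1.38 to 1.86, that of C1QC from 1.51 to 1.91 and that of MSR1 from 1.63 to 2.27. Calls over the whole table moved in the same way. Without day 85 replicate 2, 12.3% of tested genes were called higher and 10% lower. The share called higher was 0.611% without day 85 replicate 3 and 0.0849% without day 85 replicate 1. It was 0.0262%, 0% and 0.0912% without day 45 replicates 1, 2 and 3.

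The call of C1QA, the weakest of the 4, depends on the test as well. RLE scaling, no count filter and a filter of 1 CPM in 3 libraries called the same number, 4 of 7, with 4.01%, 2.6% and 4.15% of all tested genes called higher. Upper-quartile scaling, library totals, limma-voom and limma on FPKM with 0.1 or 1 added each called 3 and lost C1QA, with adjusted p between 0.0518 and 0.0595. These called 3.51%, 2.91%, 3.29%, 2.68% and 2.74% of all genes higher. DESeq2 called all 7 higher, where 12.6% of all genes were called so.

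**Figure D3:**
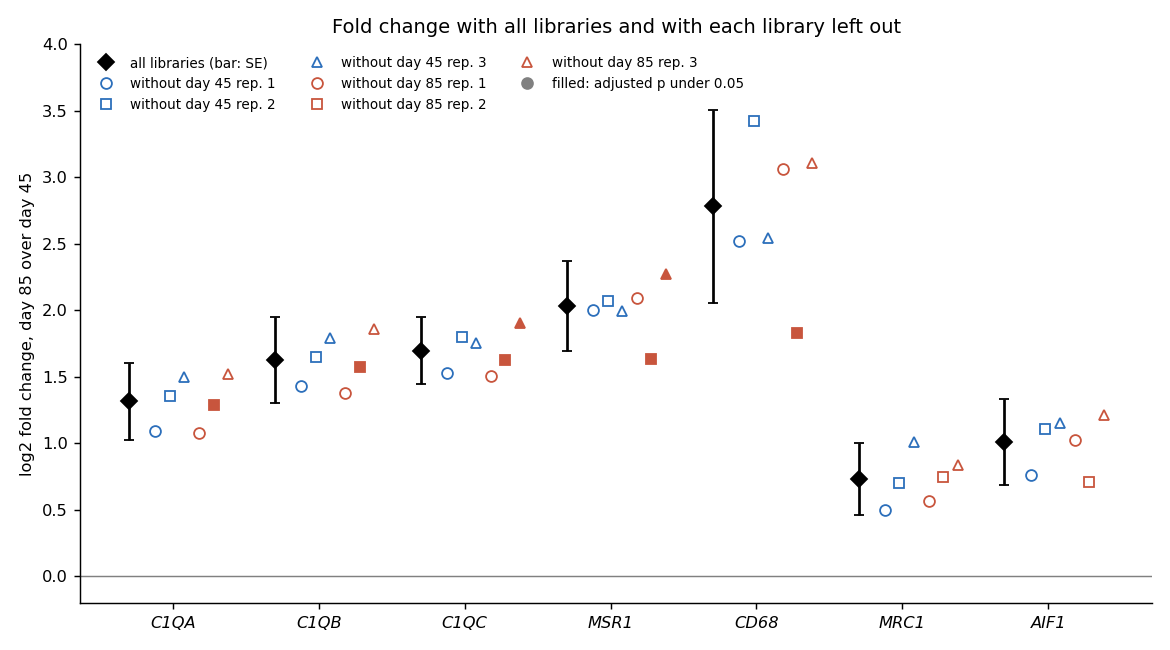
Log2 fold change (day 85 over day 45) of each gene with all libraries (black diamond, bar = SE) and with each library left out (coloured symbols, filled where adjusted p is under 0.05). All symbols lie above 0, and the fold change of CD68 drops to 1.83 without day 85 replicate 2.

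The genes followed different library patterns within day 85. The level in replicate 2 was divided by the mean of replicates 1 and 3. The outcome was 1.05 for C1QA, 1.11 for C1QB, 1.15 for C1QC and 0.958 for MRC1, near the median of 1.04 over all tested genes. It was 1.69 for AIF1, 1.96 for MSR1 and 3.85 for CD68. The same ratio was 7.06 for ACP5 and 9.67 for MMP9, an acid phosphatase and a gelatinase of osteoclasts, and the 10 osteoclast markers had a median of 6.96. At day 45 replicate 2 was likewise the highest in CD68, with a ratio of 2.68, while MSR1 and MRC1 had 1.08 and 0.948. A high day 85 ratio was not particular to osteoclast markers. The macrophage lineage genes CSF1R and SPI1 had 4.46 and 4.47. Medians were 2.18 for macrophage lineage genes, 3.30 for red cell and 3.46 for chondrocyte markers, but 0.0744 for skeletal muscle markers. At day 45 the median was 4.23 for osteoclast markers and 1.08, 1.21 and 1.04 for the lineage, red cell and chondrocyte lists. The C1q chains and MRC1 stayed between 0.948 and 1.22 at both ages. The part of osteoclast transcripts in the CD68 difference between ages was not tested.

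Markers of other cells differed between the ages as well. For the counts of calls that follow, edgeR called 3.9% of all tested genes higher and DESeq2 12.6%. Of the 10 osteoclast markers, 0 were called by edgeR, 9 were higher at an unadjusted p under 0.05 (2370 of all 15022 tested genes were), and DESeq2 called 7 higher. Their sum ran from 308 to 1321 CPM at day 45 and from 1903 to 13530 CPM at day 85. In CPM, which is not corrected for length, CTSK, cathepsin K, was the highest of them at day 45 and MMP9 at day 85. Of 9 endothelial markers, 6 were called higher, with sums of 571 to 790 CPM and 1296 to 1905 CPM. EGFL7 had the highest CPM of the 9 at day 45 and PECAM1 at day 85. The 9 neutrophil and monocyte markers summed to 13.3 to 21.0 CPM and then 20.8 to 36.5 CPM, and 0 of the 8 tested passed in edgeR, at an unadjusted p under 0.05 or in DESeq2. The 14 markers of T, B and NK cells summed to 18.4 to 28.2 CPM and then 29.9 to 55.3 CPM, with the T cell receptor gene CD3D at 0 to 3 counts in every library. Mast cell markers summed to 10.6 to 23.0 CPM and then 33.8 to 55.4 CPM, and 1 of 3 tested, GATA2, was called higher. Red cell markers summed to 435 to 815 CPM and then 606 to 2538 CPM, and 2 of 8, SLC4A1 and KLF1, were called higher. Dendritic cell markers reached at most 17.2 CPM in sum. The part of these cells in the results was not tested.

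To see whether the genes changed relative to other transcripts of the same lineage, counts were expressed per 100 counts of CSF1R, the receptor for the macrophage growth factor CSF1, within each library. CSF1R itself had levels of 16.7, 43.9 and 28.9 CPM in the younger and 65.5, 312 and 74.4 CPM in the older condyles (log2 fold change 2.34, SE 0.72, adjusted p = 0.103, edgeR; DESeq2 called it, adjusted p = 0.0204). Osteoclasts carry CSF1R too, and its replicate 2 peak at day 85 resembled that of CD68. C1QC stood at 117, 65.2 and 94.3 per 100 CSF1R counts at day 45 and at 151, 28.7 and 75.6 at day 85. The ages overlapped widely (difference of mean log2 ratios -0.38, exact permutation p = 0.8, two-sided). Without day 85 replicate 2 the difference was 0.25, so its sign rests on that library; the same holds for C1QB (-0.46 with all libraries, 0.18 without it) and MSR1 (-0.12 and 0.27). That of MSR1 was also positive, 0.24, without day 45 replicate 1.

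The ages overlapped in the ratio to CSF1R for 6 of the 7 genes. CD68 was the exception, at 83.2, 84.6 and 47.8 per 100 CSF1R counts at day 45 and 118, 93.8 and 101 at day 85 (difference of mean log2 ratios 0.58, exact permutation p = 0.1, adjusted over the 7 genes 0.467). With 3 libraries against 3 the smallest possible exact p is 0.1, so no ratio could pass. Of all tested genes, 0.14% had all their day 85 ratios to CSF1R above those of day 45. CSF1R was itself higher in every day 85 library, so a gene of steady level has ratios all below. The share of genes with ratios all below is not given. How usual overlap is over all genes is therefore not shown, and the overlap of 6 genes is not read as a result about them. MRC1 and AIF1 had the lowest differences, -1.28 and -1.06.

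PTPRC, the CD45 antigen of all nucleated blood cells, served as another denominator. Its levels were 3.25, 4.40 and 7.59 CPM in the younger and 11.9, 21.7 and 7.71 CPM in the older condyles (log2 fold change 1.44, SE 0.47, adjusted p = 0.108, edgeR; DESeq2 called it, adjusted p = 0.00672). C1QA stood at 459, 516 and 352 per 100 PTPRC counts at day 45 and 571, 256 and 482 at day 85, with a difference of mean log2 ratios of -0.08. The ages overlapped for all 7 genes. Of all tested genes, 0.439% had day 85 ratios all above, and the share all below is not given. The overlap is again not read as a result about the 7 genes. The differences ran from -0.62 for MRC1 to 1.24 for CD68. Those of C1QB and C1QC were 0.20 and 0.28. C1QC stood at 599, 646 and 358 per 100 PTPRC counts at day 45 and 828, 413 and 726 at day 85. C1QB stood at 73.8, 75.6 and 51.9 and then at 106.5, 49.0 and 83.8. For both chains the overlap rests on day 85 replicate 2. Since no ratio could pass with 3 libraries against 3, the test cannot decide whether C1q transcripts rose relative to PTPRC or CSF1R.

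**Figure D4:**
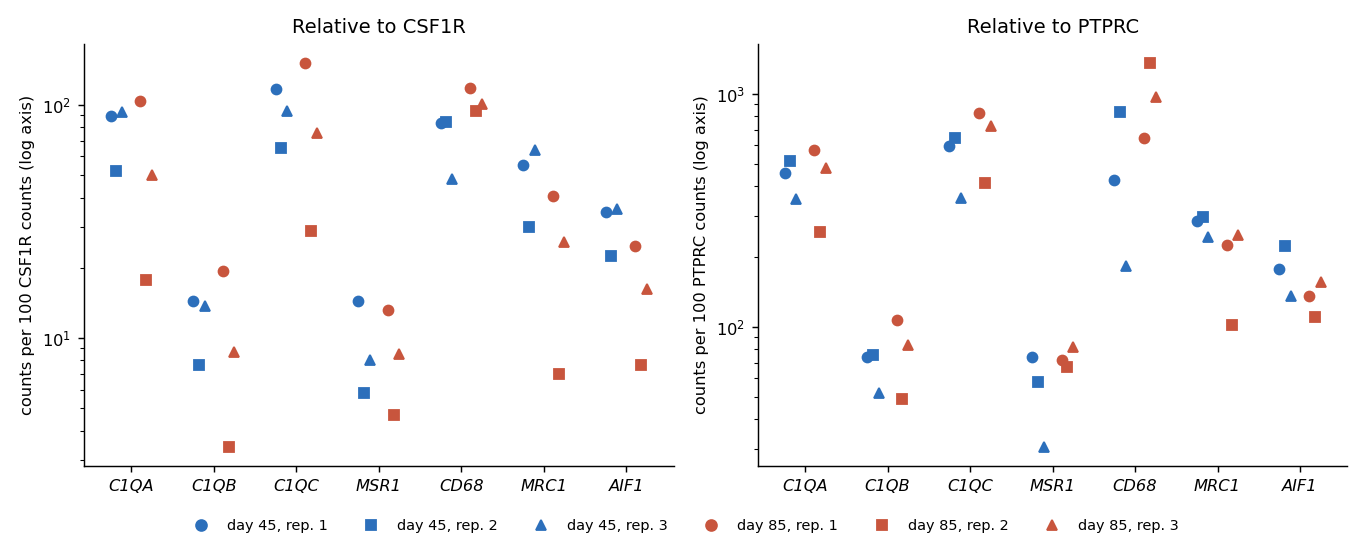
Counts of each gene per 100 counts of CSF1R (left) or PTPRC (right) in the same library, on log axes; blue is day 45, red is day 85 and the shape is the replicate. Blue and red symbols interleave except for CD68 relative to CSF1R.

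Complement genes outside C1q that passed the test were all higher at day 85. Of 42 listed, 35 matched a row and 27 were tested: 6 rose, none fell, and 23 had log2 fold changes above 0. Of all 15022 tested genes 3.9% were called higher, and 7782 were above 0. Their median log2 fold change was 0.85. C1R, the protease that C1q activates first, had 78.4, 114 and 110 CPM in the younger and 170, 230 and 173 CPM in the older condyles. It rose 1.90-fold (adjusted p = 0.0444, edgeR). C1S matched no row. C2, the next protease of the pathway, stood at 0.551, 0.649 and 0.785 CPM and then at 3.32, 4.40 and 1.71 CPM, a 4.71-fold rise (adjusted p = 0.0372, edgeR).

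The other calls lay outside the classical activation steps. CFD, the factor D protease of the alternative pathway and a known product of fat cells, rose 4.71-fold from 16.2 ± 4.27 to 76.5 ± 16.3 CPM (adjusted p = 0.0171, edgeR). CR2, the receptor for C3 fragments known from B cells and follicular dendritic cells, rose 7.81-fold from 0.386 to 3.12 CPM (adjusted p = 0.0227, edgeR). C4BPA, the alpha chain of C4-binding protein, rose (adjusted p = 0.0236, edgeR) from 0, 5 and 1 counts to 95, 132 and 53 counts. The table names another row C4BPA, with 0, 1 and 2 counts at day 45 and 0, 11 and 1 at day 85. The ID table gives that name only to this second row, so the identity of the first is uncertain.

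Several other genes of the list did not pass. C3, on which all complement pathways meet, stood at 4.66 and 15.5 CPM on average and did not pass (log2 fold change 1.74, SE 0.57, adjusted p = 0.111, edgeR). C4A stood at 24.1 and 65.2 CPM (adjusted p = 0.187, edgeR). SERPING1, the C1 inhibitor, had the highest CPM of the list, not corrected for length, at 259 and 322 CPM (adjusted p = 0.427, edgeR). CD59, which blocks the membrane attack complex, stood at 222 and 227 CPM (adjusted p = 0.928, edgeR). C9, a subunit of the terminal pore, rose 2.10-fold from 2.55 to 5.37 CPM (adjusted p = 0.0406, edgeR).

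Of 31 listed scavenger and endocytic receptors other than the genes above, 28 matched and 23 were tested: 7 rose, none fell, and the median log2 fold change was 0.69. The share of all tested genes called higher was 3.9%, and 2.66% were called lower. OLR1, a receptor for oxidised lipoprotein, rose 7.48-fold from 0.486 to 3.69 CPM (adjusted p = 0.0290, edgeR). CD209, a lectin of macrophages and dendritic cells, rose 6.20-fold from 0.774 to 4.88 CPM (adjusted p = 0.0372, edgeR). CD36, a fatty acid and lipoprotein receptor of vessels, fat cells and macrophages, had 47.1, 47.3 and 55.6 CPM in the younger and 219, 112 and 176 CPM in the older condyles, a 3.38-fold rise (adjusted p = 0.0222, edgeR). SCARF1, a scavenger receptor of endothelium that can bind C1q, rose 3.19-fold from 24.4 ± 1.07 to 77.9 ± 26.6 CPM (adjusted p = 0.0222, edgeR). CD14, the lipopolysaccharide co-receptor, stood at 16.9 and 21.0 CPM and did not pass (adjusted p = 0.406, edgeR).

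Several of these receptors are shared with endothelium. Of its 9 tested markers, 8 had log2 fold changes above 0 and 6 were called higher, beside 3.9% of all tested genes. The part of endothelium in the receptor levels was not tested. The macrophage sialic acid receptor SIGLEC1 had 3.37, 3.82 and 3.99 CPM in the younger and 9.89, 10.4 and 8.90 CPM in the older condyles. It rose 2.61-fold (adjusted p = 0.0200, edgeR), with little spread within either age. STAB1, stabilin, rose 1.61-fold from 196 ± 28.3 to 315 ± 24.9 CPM (adjusted p = 0.0444, edgeR). LYVE1, a hyaluronan receptor of lymphatic endothelium and vessel-associated macrophages, stood at 16.9 and 28.0 CPM and did not pass (adjusted p = 0.144, edgeR).

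Of 30 listed C1q partners and genes for the clearance of dying cells, 23 were tested: 2 rose, none fell, and the median was 0.54. Over all tested genes, 3.9% were called higher and 2.66% lower. CD93, a C-type lectin first described as a C1q receptor and abundant on endothelium, stood at 134, 134 and 185 CPM and then at 383, 357 and 333 CPM, a 2.37-fold rise (adjusted p = 0.0200, edgeR). ABCA1, the cholesterol exporter that cells load with lipid switch on, stood at 38.0, 46.2 and 50.7 CPM and then at 131, 108 and 74.1 CPM, a 2.32-fold rise (adjusted p = 0.0362, edgeR). Its libraries fell in the same order as those of C1QA and C1QB at both ages. CALR, calreticulin, which can serve as a C1q receptor at the cell surface, stood at 1127 and 719 CPM (log2 fold change -0.65, SE 0.18, adjusted p = 0.0736, edgeR). MERTK and AXL, receptors that bind dying cells through GAS6 and PROS1, had log2 fold changes of -0.34 and 0.25 (adjusted p = 0.437 and 0.428, edgeR).

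Of 36 listed macrophage lineage genes, 28 were tested: 2 rose, none fell, and 27 had log2 fold changes above 0, beside 3.9% of all tested genes called higher and 7782 of 15022 above 0. Their median log2 fold change was 1.20. The 32 matched lineage genes summed to 458, 609 and 466 CPM in the younger and 674, 1677 and 597 CPM in the older condyles. CEBPB and IRF8, transcription factors of myeloid cells, were listed at 0 counts in every library. Whether reads could be assigned to these rows was not tested, so the 0 counts do not show that the genes were silent. CEBPA, a myeloid transcription factor, rose 3.22-fold from 4.63 ± 0.885 to 14.9 ± 5.89 CPM (adjusted p = 0.0372, edgeR). CYBB, the catalytic subunit of the phagocyte oxidase, had 3.55, 3.03 and 5.36 CPM in the younger and 11.8, 13.6 and 8.04 CPM in the older condyles, a 2.79-fold rise (adjusted p = 0.0414, edgeR). SPI1, which encodes PU.1, stood at 36.0 and 121 CPM on average, with 252 CPM in day 85 replicate 2 and 59.8 and 52.8 CPM in replicates 1 and 3 (adjusted p = 0.156, edgeR).

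One gene of the macrophage list pointed the other way. F13A1, the A subunit of coagulation factor XIII, is made by resident macrophages and also by chondrocytes and osteoblasts. Its levels were 163, 132 and 101 CPM in the younger and 27.1, 80.5 and 25.4 CPM in the older condyles, with no overlap between the ages. With all libraries it did not pass (log2 fold change -1.57, SE 0.49, adjusted p = 0.105, edgeR; 0.0269 with DESeq2), and without day 85 replicate 2 it fell, with a log2 fold change of -2.33 (adjusted p = 0.00191, edgeR). The summed level of the 10 chondrocyte markers, 13210 to 16110 CPM at day 45, was 1586, 5581 and 3360 CPM in day 85 replicates 1, 2 and 3, also lower and also highest in replicate 2. Of these markers 9 had a negative log2 fold change and 3 fell. Of all 15022 tested genes 7240 were negative, and 2.66% were called lower. Their part in the F13A1 result was not tested.

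The counts of calls in these lists depend on single libraries and, for some genes, on the test. STAB1 was not called with upper-quartile scaling, library totals or either FPKM fit (adjusted p = 0.0502 to 0.0591). ABCA1 and CYBB were not called in either FPKM fit (0.0527 to 0.05998), C2 was not with limma-voom or FPKM plus 1 (0.0568 and 0.0592), OLR1 was not with FPKM plus 1 (0.0509), and C9 was not with library totals (0.0548). Without day 85 replicate 2, 12.3% of all tested genes were called higher and 10% lower. In that fit complement calls were 9 upward and 2 downward of 28 tested, and scavenger receptor calls 9 upward of 23. Clearance calls were 7 upward and 1 downward of 23, and lineage calls 8 upward and 1 downward of 28. Without day 85 replicate 3, 0.611% of all tested genes were called higher, and 3 of 28 complement genes. Without each other library the share over all genes was 0% to 0.0912%. Complement calls became 0 without any of the day 45 libraries or day 85 replicate 1. Outside the fit without day 85 replicate 2, the scavenger and clearance lists had 0 or 1 call and the lineage list 0. The lists held 17 calls with all libraries. All 17 stayed called without day 85 replicate 2. Without day 85 replicate 3, C4BPA, CFD, C2 and ABCA1 stayed called, and without day 85 replicate 1 SCARF1 alone did. None of the 17 passed without any 1 of the day 45 libraries.

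**Figure D5:**
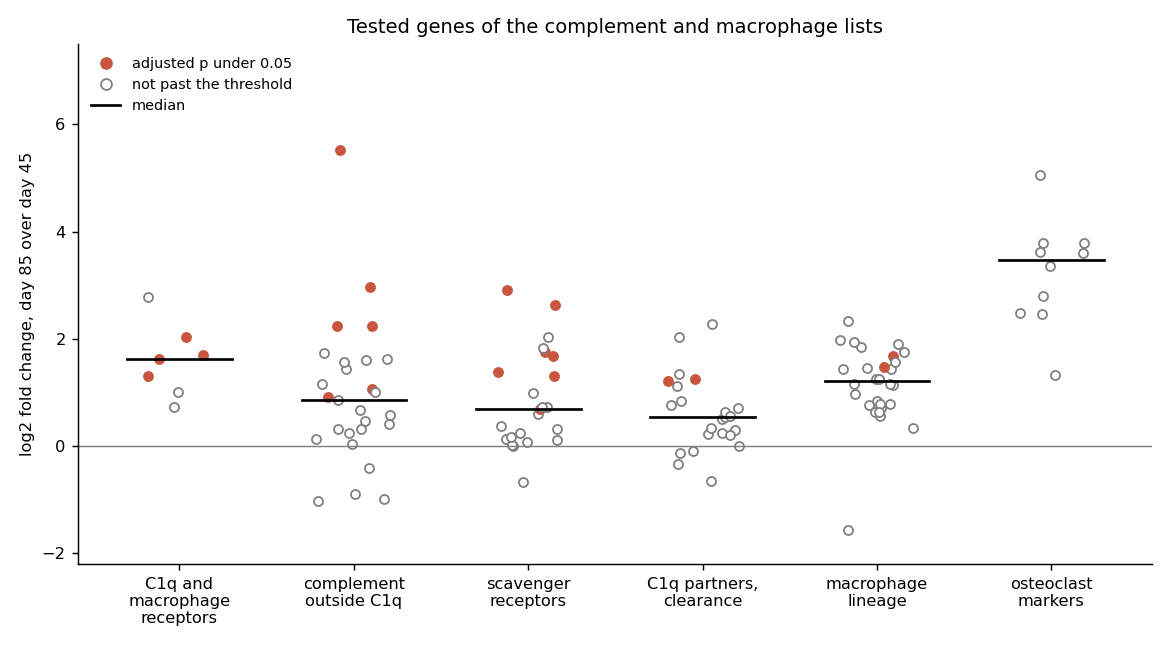
Log2 fold change (day 85 over day 45) of the tested genes of each list; each point is a gene, filled red where adjusted p is under 0.05, and the black line is the median. Medians are 1.62 for the C1q and macrophage receptor genes, 0.85, 0.69, 0.54 and 1.20 for the lists around them and 3.47 for the osteoclast markers, none of which is filled.

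Across all named genes averaging at least 5 CPM, 9677 in number, the one whose pattern over the 6 libraries was most like the mean of the C1q chains was ABCA1 (Pearson r = 0.997 on log2 of CPM plus 1). PARVG, a parvin of blood cells (0.987), AGA, a lysosomal amidase (0.985), RNF13 (0.984) and PRKD2 (0.984) came next. CSF1R ranked 993 and PTPRC 441. For MSR1 the nearest were SLC12A7 (0.999), LRCH4 (0.998) and ENG (0.996). For CD68 they were TEC (0.996), RENBP (0.996) and CD84 (0.995), a receptor of myeloid and lymphoid cells. For MRC1 they were TNFSF10 (0.995), MDM2 (0.990) and DISC1 (0.983). MDM2 itself had a log2 fold change of 0.075 (adjusted p = 0.705, edgeR). For AIF1 they were CD53 (0.990), a leukocyte tetraspanin, SAT1 (0.985) and IQCE (0.981). Among themselves the C1q chains had r of 0.980 to 0.992, and the lowest r among the 7 genes was 0.648, between MRC1 and CD68. These values describe 6 libraries in 2 ages, so they mostly carry the difference between ages, and many genes reach a high r by it.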

How the data were processed

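Per the labels' protocols, the 6 libraries are rRNA-depleted total RNA whose second cDNA strand was degraded. The submitters' processing notes name HISAT2. No source used here gives the genome build, the annotation, or the program and strand setting used for counting, so reads from overlapping or antisense genes may be shared. Per the file headers, the authors deposited whole-number counts per gene and FPKM; over 10748 genes the FPKM equalled counts scaled by library total and 1 factor per gene, within 0.00179%.

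Names came from the table, then from a table of gene IDs; of 10030 named rows that it also lists, 599 have another name there. The members and lists were chosen with earlier results of these data known. The main test was edgeR 4.0.16 in R 4.3.3: filterByExpr (minimum count 10), TMM, robust dispersions and the quasi-likelihood F test of age, with Benjamini-Hochberg adjustment over all tested genes and a threshold of 0.05. SE is the log2 fold change over the square root of F. Ratios within a library used counts plus 0.5 and a two-sided exact permutation test. The edgeR script was tested on simulated data. From each of the 4 lists, the rule named up to 4 called genes of largest change averaging at least 1 CPM in the higher age; other list genes were chosen after their values were seen, and 1 gene is not reported here. Alternatives were other scalings and filters, DESeq2 1.42.0, limma 3.58.1 on counts or FPKM, a replicate block, PTPRC as denominator and leaving out each library.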

Additional observations from a re-analysis of the deposited data

How the results depend on the processing

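All 7 log2 fold changes stayed above 0 under every alternative run. DESeq2 called more: 7 of the 7 genes, 2064 genes higher and 1770 lower over the table, and 11 higher and 2 lower complement genes, 12 higher scavenger receptors, 9 higher and 1 lower clearance genes and 15 higher and 1 lower lineage genes. On FPKM with 0.1 or with 1 added, 1 complement gene was called lower, 1 clearance gene higher and 1 lower, and 1 lineage gene higher; library totals also called 1 clearance gene lower. Library totals turned the table from 586 higher and 400 lower to 437 and 598, FPKM to 402 and 554 (0.1 added) or 412 and 586 (1 added), and upper-quartile scaling to 527 and 489. The causes were not tested.

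Same-numbered libraries did not all deviate together (r = 0.013, 0.25 and 0.04 for numbers 1, 2 and 3), so the numbers were not taken as pairs. With the replicate block, 3 of the 7 genes were called (C1QC, MSR1 and CD68); C1QA and C1QB were not (adjusted p = 0.0862 and 0.0727). The block called CSF1R (0.0428) and 8 of 10 osteoclast markers, and did not call C2, OLR1, ABCA1, CYBB, C9 or STAB1 (0.0511 to 0.0756). Over the table, 465 genes were higher and 217 lower.

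Leaving out single libraries gave 0 to 5 calls among the 7 genes, 0 to 1884 higher and 0 to 1528 lower over the table. It gave 0 to 9 higher and 0 to 2 lower complement genes, 0 to 9 higher scavenger receptors, 0 to 7 higher and 0 to 1 lower clearance genes, and 0 to 8 higher and 0 to 1 lower lineage genes. With PTPRC in place of CSF1R the difference of mean log2 ratios turned positive for C1QB (0.20), C1QC (0.28) and MSR1 (0.54). Levels near or below 1 CPM rest on under 20 counts per library.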
